A study of Arabidopsis thaliana with 36 samples.

Results

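The genes described here encode 6 enzymes or enzyme subunits of carbon fixation and photorespiration in Arabidopsis thaliana. They are RCA (AT2G39730), SBPASE (AT3G55800), HPR (AT1G68010), the T and H proteins of glycine decarboxylase (AT1G11860 and AT1G32470) and glycerate kinase (AT1G80380). They were chosen by name, and each was read from its brightest probe set among those matching a single gene. Each had 1 such probe set, and all 6 were among the 6846 genes tested, of 13356 genes with a single-gene probe set. A gene was tested when its mean over the 36 arrays was at least 4 on the log2 scale. Tests run with no such filter are called tests with dim genes kept.

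In the Calvin-Benson cycle Rubisco fixes carbon dioxide, Rubisco activase (RCA) clears inhibitors from its active sites, and sedoheptulose bisphosphatase (SBPASE) takes part in rebuilding the acceptor sugar. When Rubisco takes oxygen in place of carbon dioxide it makes phosphoglycolate, which photorespiration recycles through chloroplasts, peroxisomes and mitochondria. There, mitochondrial glycine decarboxylase, a complex of P, T, H and L proteins, breaks down glycine, peroxisomal hydroxypyruvate reductase (HPR) makes glycerate, and glycerate kinase returns it to the cycle in the chloroplast.

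The study followed the association of mRNA with ribosomes over a day. RNA was taken from large polysomes (many ribosomes on an mRNA), from small polysomes (few ribosomes) and from non-polysomal material at 4 times counted in hours from lights on (Zeitgeber time, ZT0, ZT6, ZT12 and ZT18), with 3 replicates of each of the 12 groups. All groups were the aerial part of wild-type Columbia seedlings aged 10 days, raised on agar holding Murashige and Skoog salts and 1% sucrose with 16 h of light and 8 h of dark, so that ZT18 fell in the dark. Seedlings overexpressing CCA1, named by the series' design, were not analysed here. No label says whether replicates of a group were separate cultures, and p-values therefore cover only the spread among the samples at hand, which may be technical.

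The values are log2 intensities normalised by the authors across arrays, whose medians lay between 4.57 and 4.80. A value is therefore relative to the mRNA of its own array, and a difference in the total amount of mRNA is not visible. All 4 tested genes of the aerial list (LHCB4.1, LHCB4.2, PSAN and PSBW, of chloroplast light harvesting and photosystems) averaged 12.72 or more. Of the root list, the glucosidase PYK10 averaged 9.95 and the root hair expansin EXP7 averaged 2.20, and the other 8 were not measured by a single-gene probe set. The poly-A control probe sets were lower in large polysomes than in the non-polysomal fraction in 12 of 12 extracts, by -1.82 ± 0.82 (SD, n = 12), and probe sets of plastid-encoded genes by -1.29 ± 0.65 (SD, n = 12). The hybridisation control probe sets were lower in large polysomes as well, in 12 of 12 extracts, by -0.75 ± 0.22 (SD, n = 12). These fraction differences moved beside every fraction result below, and their part in them was not tested.

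The first question was how the transcripts were distributed between large polysomes and non-polysomal RNA. The T protein transcript of glycine decarboxylase was higher in large polysomal RNA, by a log2 difference of 0.80 ± 0.11 (SE, 12 extracts, fractions not paired), or 1.75-fold. HPR was higher there by 0.34 ± 0.09, and the H protein transcript was lower, by -0.32 ± 0.07. Glycerate kinase, RCA and SBPASE, at 0.19 ± 0.11, 0.27 ± 0.16 and 0.09 ± 0.09, did not pass the test. Thus 3 of the 6 passed, 2 higher and 1 lower, where 77.8% of all tested genes passed (40.2% higher and 37.5% lower). The median of the 6 differences was 0.23, and that of all tested genes was 0.03. The test was limma's moderated test with Benjamini-Hochberg adjustment over all tested genes, 2-sided, called at an adjusted p under 0.05. With the extract (a time and a replicate number) as a block, which pairs the fractions, 5 of the 6 passed, where 81.8% of all tested genes did, because RCA (adjusted p = 0.0225) and glycerate kinase (adjusted p = 0.0394) were then called higher. After cyclic loess scaling of the arrays 5 passed as well, with RCA (0.37, adjusted p = 0.0253) and SBPASE (0.20, adjusted p = 0.0228) as the added calls.

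**Figure D1:**
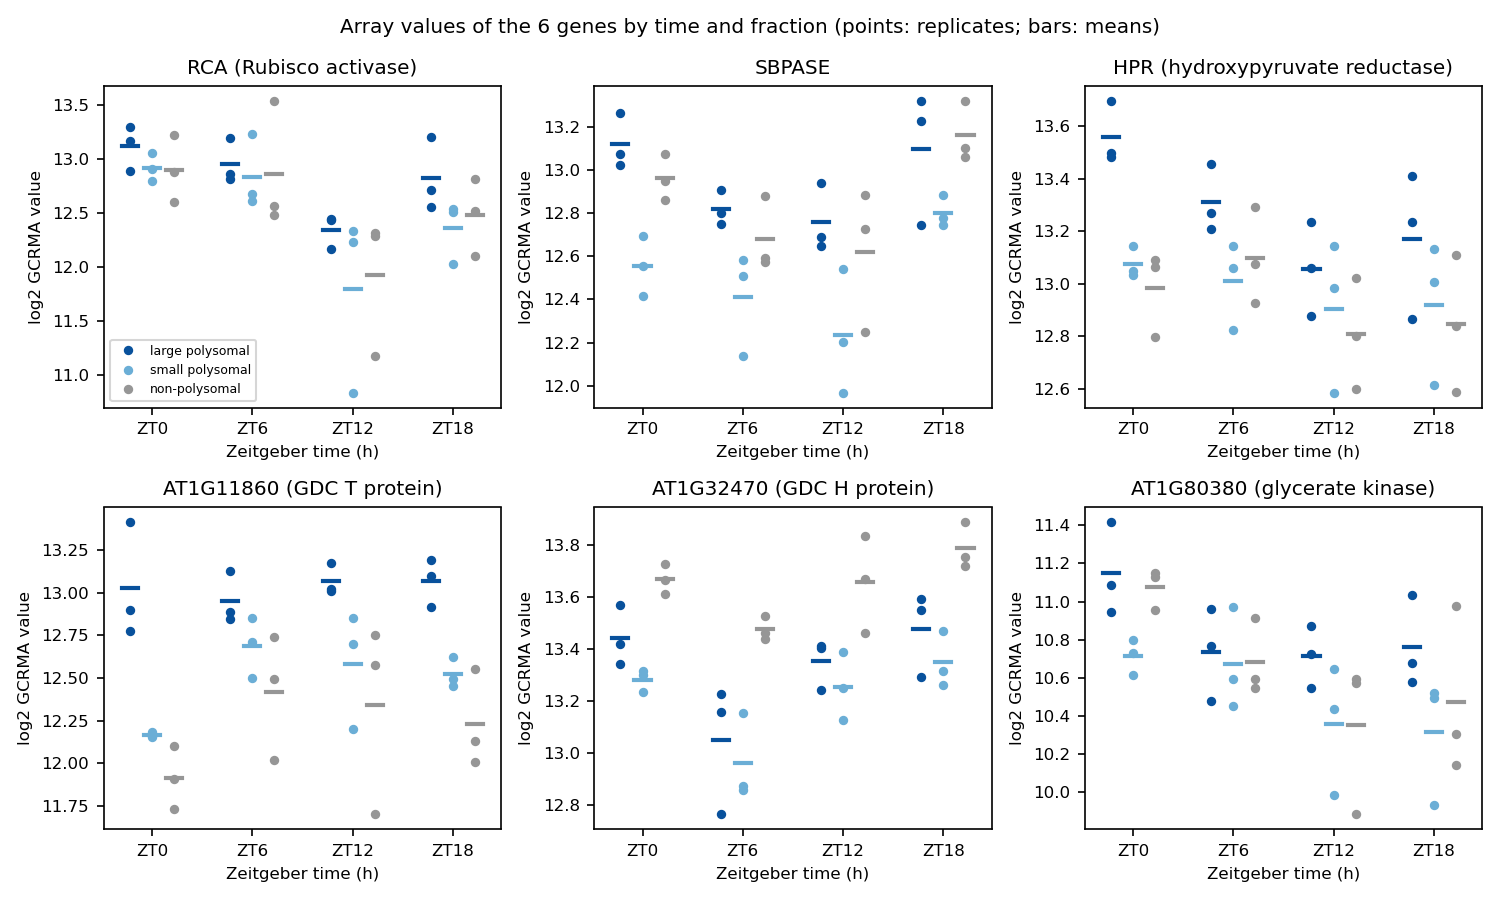
Log2 array values (vertical axis) of the 6 genes at ZT0, ZT6, ZT12 and ZT18 in large polysomal, small polysomal and non-polysomal RNA, with a point for each of 3 replicates and a bar for their mean. For AT1G11860 the large polysomal mean is the highest of the 3 fractions at every time, and for AT1G32470 the non-polysomal mean is.

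The T protein, an aminomethyltransferase, releases ammonia from the glycine-derived group held by the H protein. At ZT0 AT1G11860 read 12.78, 12.90 and 13.41 in large polysomal RNA, against 11.91, 11.73 and 12.10 in non-polysomal RNA. At ZT6 it read 12.85, 13.13 and 12.89 in large polysomal RNA, against 12.74, 12.02 and 12.49 in non-polysomal RNA. At these times every large polysomal value lay above every non-polysomal value. At ZT12 it read 13.18, 13.02 and 13.01 in large polysomal RNA, against 12.58, 12.75 and 11.70 in non-polysomal RNA. At ZT18 it read 13.19, 13.10 and 12.92 in large polysomal RNA, against 12.55, 12.13 and 12.01 in non-polysomal RNA. The fractions did not overlap at ZT12 or ZT18 either, and the low non-polysomal value of 11.70 at ZT12 belonged to replicate 3. How many of all tested genes lack overlap between fractions at a single time was not counted, here or for the genes below. Such a lack may be common, as 54.2% to 59.2% of all tested genes passed for large minus non-polysomal RNA at a single time. Within an extract the difference was above 0 in 12 of 12 extracts, between 0.11 and 1.31. Its adjusted p in limma was 1.4e-07 without the extract block and 1.18e-08 with it. Small polysomes held an intermediate mean at every time. They lay above non-polysomal RNA by 0.26 ± 0.11 (adjusted p = 0.0421), a call that ended under median centring (adjusted p = 0.335), with dim genes kept (adjusted p = 0.0665) and with replicate 1 as the only ZT18 extract (0.16, adjusted p = 0.346). It also ended in 9 of the 15 fits that left out an extract or a replicate number. Among these were the fits without ZT0 replicate 1 or 2, ZT6 replicate 2, ZT12 replicate 1, or ZT18 replicate 2 or 3, where the difference was 0.21 to 0.26 and the adjusted p 0.0627 to 0.125.

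The H protein carries the reaction intermediates between the other subunits on a lipoyl arm. At ZT0 AT1G32470 read 13.34, 13.42 and 13.57 in large polysomal RNA, against 13.61, 13.73 and 13.67 in non-polysomal RNA. At ZT6 it read 12.76, 13.23 and 13.16 in large polysomal RNA, against 13.46, 13.53 and 13.44 in non-polysomal RNA. Here all large polysomal values were below all non-polysomal values. At ZT12 it read 13.24, 13.41 and 13.41 in large polysomal RNA, against 13.84, 13.46 and 13.67 in non-polysomal RNA. At ZT18 it read 13.55, 13.59 and 13.29 in large polysomal RNA, against 13.89, 13.75 and 13.72 in non-polysomal RNA. The order was thus the same at each time, without overlap, although at ZT12 the closest values were 13.41 and 13.46. Within an extract the difference was below 0 in 12 of 12 extracts, from -0.70 to -0.05. Its adjusted p in limma was 0.000252 without the extract block and 0.000389 with it. Small polysomal RNA was lower than non-polysomal RNA as well, by -0.44 ± 0.07 (adjusted p = 5.96e-06), in 12 of 12 extracts. Large and small polysomes differed by 0.12 ± 0.07, which did not pass (adjusted p = 0.157, 95% confidence interval -0.03 to 0.27).

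In the same extract the T protein's large minus non-polysomal difference exceeded that of the H protein by 1.12 ± 0.37 (SD, n = 12). The range was 0.32 to 1.58 on the log2 scale. That it was above 0 in 12 of 12 extracts follows from the signs given above and adds no result. Other pairs of genes were not compared in this way. The T and H proteins had the highest and the lowest mean difference of the 6 genes. Both genes passed in each fit that left out an extract or a replicate number, with adjusted p between 1.41e-07 and 0.00011 for the T protein and between 0.000219 and 0.0316 for the H protein.

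**Figure D2:**
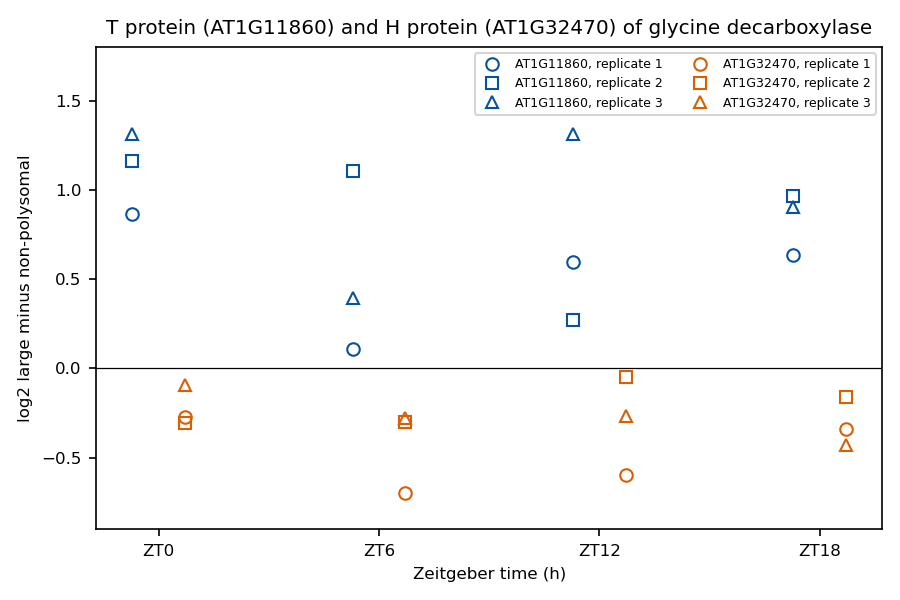
Large polysomal minus non-polysomal log2 difference (vertical axis) of the T protein gene AT1G11860 and the H protein gene AT1G32470 at ZT0, ZT6, ZT12 and ZT18, with a symbol for each of the 3 extracts of a time. The T protein symbols lie above the zero line, from 0.11 to 1.31, and the H protein symbols below it, from -0.70 to -0.05.

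HPR reduces hydroxypyruvate to glycerate. At ZT0 it read 13.48, 13.50 and 13.70 in large polysomal RNA, against 13.06, 12.80 and 13.09 in non-polysomal RNA, with no overlap. At ZT6 it read 13.46, 13.27 and 13.21 in large polysomal RNA, against 13.29, 12.92 and 13.08 in non-polysomal RNA, and the ranges overlapped. At ZT12 and ZT18 they overlapped too. At ZT12 HPR read 13.23, 12.88 and 13.06 in large polysomal RNA, against 13.02, 12.80 and 12.60 in non-polysomal RNA. At ZT18 it read 13.41, 13.23 and 12.86 in large polysomal RNA, against 13.11, 12.59 and 12.84 in non-polysomal RNA. Within an extract the difference was above 0 in 12 of 12 extracts, between 0.02 and 0.70. Its adjusted p in limma was 0.00129 without the extract block and 0.000327 with it. The T protein, the H protein and HPR were thus the 3 of 6 genes with the same side in 12 of 12 extracts, as were 49.5% of all tested genes. HPR was also higher in large than in small polysomes, by 0.30 ± 0.09 (adjusted p = 0.00595), a call that ended without replicate number 3 (adjusted p = 0.0522). Small polysomal and non-polysomal RNA differed by 0.04 ± 0.09 (adjusted p = 0.698, 95% confidence interval -0.14 to 0.23), and this difference was called at 0.27 after cyclic loess scaling (adjusted p = 0.00242).

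Glycerate kinase makes the phosphoglycerate that re-enters the cycle. AT1G80380 read between 10.48 and 11.42 in large polysomal RNA, between 9.93 and 10.97 in small polysomal RNA and between 9.88 and 11.15 in non-polysomal RNA. The ranges over the day overlapped widely. It was higher in large than in small polysomes by 0.32 ± 0.11 (adjusted p = 0.0144 in limma), in 11 of 12 extracts. That call ended without ZT0 replicate 3 (0.28, adjusted p = 0.0549) and without replicate number 2 or 3 (adjusted p = 0.102 and 0.0651).

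**Figure D3:**
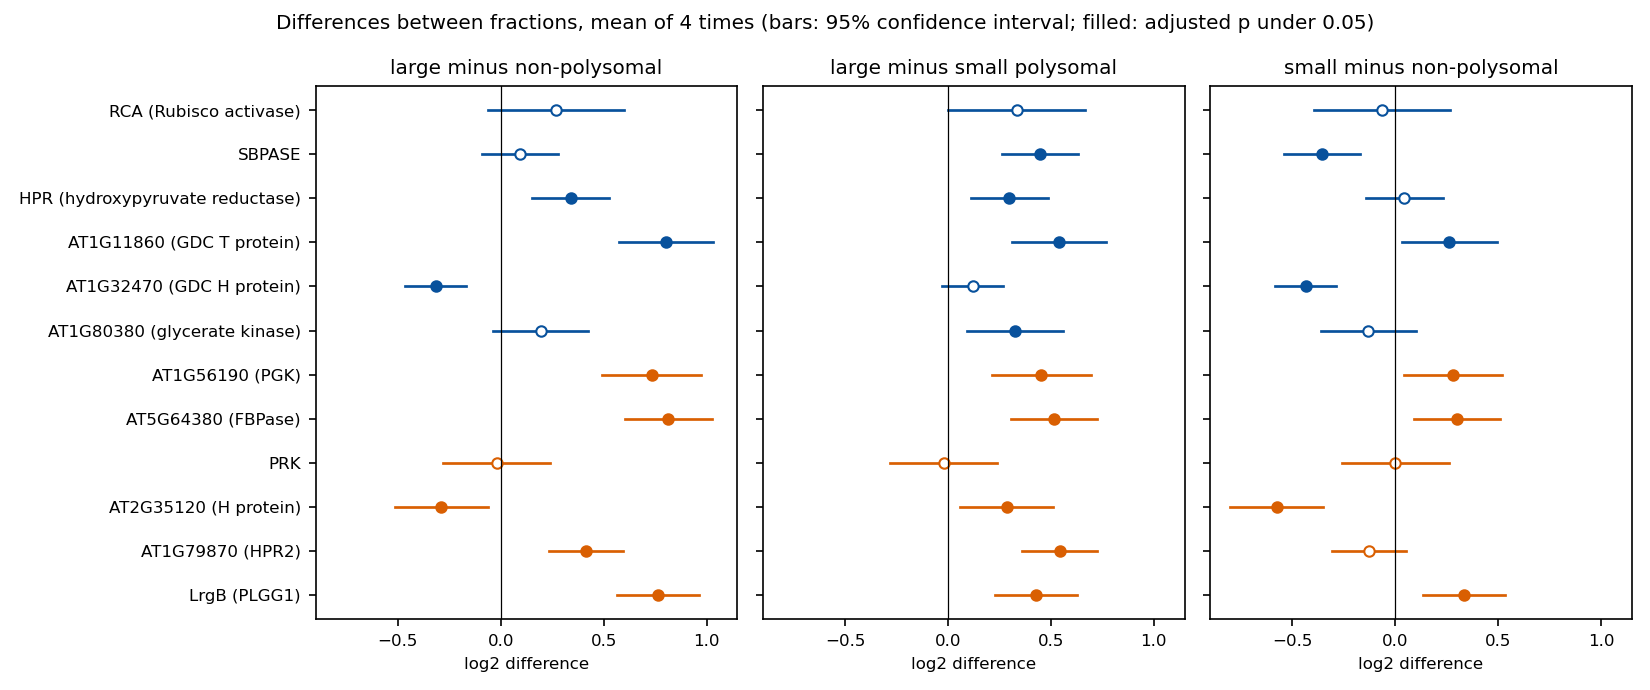
Log2 differences between fractions (horizontal axes), averaged over the 4 times, for the 6 genes (blue) and for 6 other tested genes of the same pathways (orange), with 95% confidence intervals and filled points where the adjusted p was under 0.05. Of the 6 genes, AT1G32470 is the one whose large minus non-polysomal point is called below 0, and in the middle panel no gene is called below 0.

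Of the Calvin-Benson cycle genes, SBPASE removes a phosphate from sedoheptulose bisphosphate. At ZT0 it read 13.07, 13.02 and 13.27 in large polysomal RNA, against 12.42, 12.69 and 12.55 in small polysomal RNA. At ZT6 it read 12.91, 12.75 and 12.80 in large polysomal RNA, against 12.58, 12.51 and 12.14 in small polysomal RNA. At ZT12 it read 12.94, 12.69 and 12.65 in large polysomal RNA, against 12.20, 12.54 and 11.97 in small polysomal RNA. At these 3 times the large polysomal values were all above the small polysomal values. At ZT18 it read 13.32, 13.23 and 12.75 in large polysomal RNA, against 12.78, 12.75 and 12.88 in small polysomal RNA, and replicate 3 ran the other way. SBPASE was higher in large than in small polysomes by 0.45 ± 0.09 (adjusted p = 8.02e-05 in limma). It was lower in small polysomes than in the non-polysomal fraction in 12 of 12 extracts, by -0.36 ± 0.09 (adjusted p = 0.00104), a call that ended after cyclic loess scaling (-0.15, adjusted p = 0.113) and without replicate number 1 (-0.26, adjusted p = 0.0702). Large polysomal and non-polysomal RNA differed by 0.09, with a 95% confidence interval of -0.09 to 0.28 (adjusted p = 0.35), and after cyclic loess scaling by 0.20, which passed (adjusted p = 0.0228).

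RCA had the widest intervals of the 6 genes. It read between 12.16 and 13.30 in large polysomal RNA, between 10.83 and 13.23 in small polysomal RNA and between 11.18 and 13.55 in non-polysomal RNA. The lowest small polysomal and the lowest non-polysomal value both came from ZT12 replicate 3. RCA was above non-polysomal RNA in large polysomes in 11 of 12 extracts, the exception being ZT6 replicate 1 at -0.35. Its large minus small polysomal difference was 0.33 ± 0.16 and did not pass (adjusted p = 0.075 in limma), while with the extract block it did (adjusted p = 0.00742). It also passed under median centring (adjusted p = 0.0407), without ZT12 replicate 1 (adjusted p = 0.0495) and with replicate 1 as the only ZT18 extract (0.51, adjusted p = 0.0372).

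Over the 6 genes, large exceeded small polysomes in 4 and was below it in 0 (5 and 0 with the block), where 61.2% of all tested genes passed (30% higher and 31.2% lower, and 68.1% in all with the block). Small polysomal against non-polysomal RNA gave 1 higher and 2 lower, where 62.7% passed (33.5% higher and 29.2% lower). There the H protein and SBPASE, 2 of 6, were on the same side in 12 of 12 extracts, as were 34% of all tested genes. The 3 fraction contrasts share arrays, so these counts are not independent of each other.

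Of the other genes of both pathways, 6 were tested, out of 26 genes listed for the Calvin-Benson cycle and 28 for photorespiration, which include the 6 above. For large minus non-polysomal RNA 77.8% of all tested genes passed (40.2% higher and 37.5% lower). Of these 6 genes 5 passed, and large polysomal RNA was higher than non-polysomal RNA in 4 of them. These were AT5G64380, a chloroplast fructose bisphosphatase, by 0.81 ± 0.10, AT1G32080 (PLGG1), the glycolate and glycerate transporter of the chloroplast envelope, by 0.76 ± 0.10, AT1G56190, a phosphoglycerate kinase, by 0.73 ± 0.12, and AT1G79870 (HPR2), a cytosolic hydroxypyruvate reductase, by 0.42 ± 0.09. All 4 calls held without any extract or replicate number. AT2G35120, another H protein gene of glycine decarboxylase, was lower by -0.29 ± 0.11 (adjusted p = 0.019 in limma), below 0 in 8 of 12 extracts. Its call ended in 6 of 15 fits that left out samples, among them those without ZT0 replicate 3, ZT6 replicate 1 or 3, ZT12 replicate 1 or ZT18 replicate 2 (-0.27 to -0.20, adjusted p 0.0502 to 0.103). The gene of phosphoribulokinase (PRK, AT1G32060), which makes the acceptor of carbon dioxide, did not pass, at -0.02 ± 0.13 (95% confidence interval -0.28 to 0.24). Between large and small polysomes 5 of the 6 were higher and 0 lower, where 61.2% of all tested genes passed, with 30% higher. PRK was the one that did not pass, and the call of AT2G35120 (0.29, adjusted p = 0.0261) ended after cyclic loess scaling (adjusted p = 0.0656) and in 5 of 15 fits that left out samples (adjusted p up to 0.178). These were the fits without ZT6 replicate 2, ZT12 replicate 3, ZT18 replicate 1 and replicate number 1 or 2.

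Between small polysomal and non-polysomal RNA 3 of these other genes were higher, AT1G56190, AT5G64380 and PLGG1, and AT2G35120 was lower, at -0.58 ± 0.11 (adjusted p = 4.38e-05), where 62.7% of all tested genes passed. Under median centring none of the 3 higher calls held (adjusted p = 0.29, 0.173 and 0.0721). The AT1G56190 call also ended with dim genes kept (adjusted p = 0.0652), with replicate 1 as the only ZT18 extract (adjusted p = 0.249) and in 10 of 15 fits that left out samples (0.23 to 0.29, adjusted p 0.053 to 0.264). The AT5G64380 call ended after cyclic loess scaling (adjusted p = 0.0712) and without ZT0 replicate 3 or replicate number 2 or 3 (adjusted p = 0.0572, 0.0629 and 0.0867). The PLGG1 call ended with replicate 1 as the only ZT18 extract (adjusted p = 0.0564).

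The large minus non-polysomal difference was also taken at each time. The T protein passed at all 4 times, at 1.11 (ZT0), 0.54 (ZT6), 0.73 (ZT12) and 0.84 (ZT18). HPR passed at ZT0, at 0.58 (adjusted p = 0.00857 in limma), and the H protein at ZT6, at -0.43 (adjusted p = 0.0129). The count was 2 of 6 genes at ZT0 and at ZT6 and 1 of 6 at ZT12 and at ZT18, where 56.1%, 59.2%, 56.2% and 54.2% of all tested genes passed. Several of these calls rested on single extracts. The T protein call at ZT6 ended without ZT6 replicate 2 (0.25, adjusted p = 0.464), ZT6 replicate 3 (adjusted p = 0.0819), ZT0 replicate 2 (adjusted p = 0.0505) or ZT18 replicate 2 (adjusted p = 0.0503). Its call at ZT12 ended without ZT12 replicate 3 (0.43, adjusted p = 0.119). The HPR call at ZT0 ended without ZT0 replicate 2 or 3 (adjusted p = 0.0696 and 0.0504), and the H protein call at ZT6 without ZT6 replicate 1 (-0.29, adjusted p = 0.169) and after cyclic loess scaling (-0.14, adjusted p = 0.388). Cyclic loess also added HPR at ZT6 (0.47, adjusted p = 0.00732) and ZT12 (0.42, adjusted p = 0.0168) and SBPASE at ZT6 (0.38, adjusted p = 0.0436). The T protein call at ZT6 ended under median centring (adjusted p = 0.0857) and with dim genes kept (adjusted p = 0.0659), settings that added the H protein at ZT12 (adjusted p = 0.0406 and 0.0353) and ZT18 (adjusted p = 0.0198 and 0.0316).

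Whether this difference varied over the day was tested directly with a moderated F test over the 4 times. None of the 6 genes passed (0 of 6), with adjusted p of 0.698 for the T protein to 0.968 for RCA in limma, and 0.407 to 0.888 with the extract block. Of all tested genes 2.85% passed, or 11.2% with the block. The T protein had the widest spread of the 4 time means among the 6, 0.58 on the log2 scale, which was also the median spread of all tested genes (0.58). The median spread of the 6 was 0.32. For ZT12 minus ZT0 and ZT18 minus ZT6, 0 of 6 genes passed, where 0.146% and 5.04% of all tested genes did. The T protein's ZT12 minus ZT0 change of this difference was -0.39, with a 95% confidence interval of -1.04 to 0.26, so changes of that width were not resolved. Among the other pathway genes, AT2G35120 passed for ZT18 minus ZT6 only with the block (0.91, adjusted p = 0.0419, against 0.0843 without it).

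Levels over the day were taken as the mean of the 3 fractions of an extract, an approximation of total transcript, because the 3 fractions are weighted equally however much RNA each holds. RCA was lowest at ZT12 and SBPASE highest at ZT18. Both passed the F test over the 4 times (adjusted p = 0.0187 and 0.0296 in limma), which made 2 of 6 genes, where 58.1% of all tested genes passed. The H protein (adjusted p = 0.0564), glycerate kinase (0.0887), HPR (0.272) and the T protein (0.294) did not. Which genes passed depended on the setting. The RCA call ended with dim genes kept (adjusted p = 0.0918) and without replicate number 1 or 3 (adjusted p = 0.0596 and 0.147). The H protein passed after cyclic loess scaling (adjusted p = 0.00503), with dim genes kept (adjusted p = 0.00959) and with a trended robust variance (adjusted p = 0.013), and glycerate kinase without ZT18 replicate 1 (adjusted p = 0.0324). In such bulk samples fewer cells of a type and less RNA per cell cannot be told apart.

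**Figure D4:**
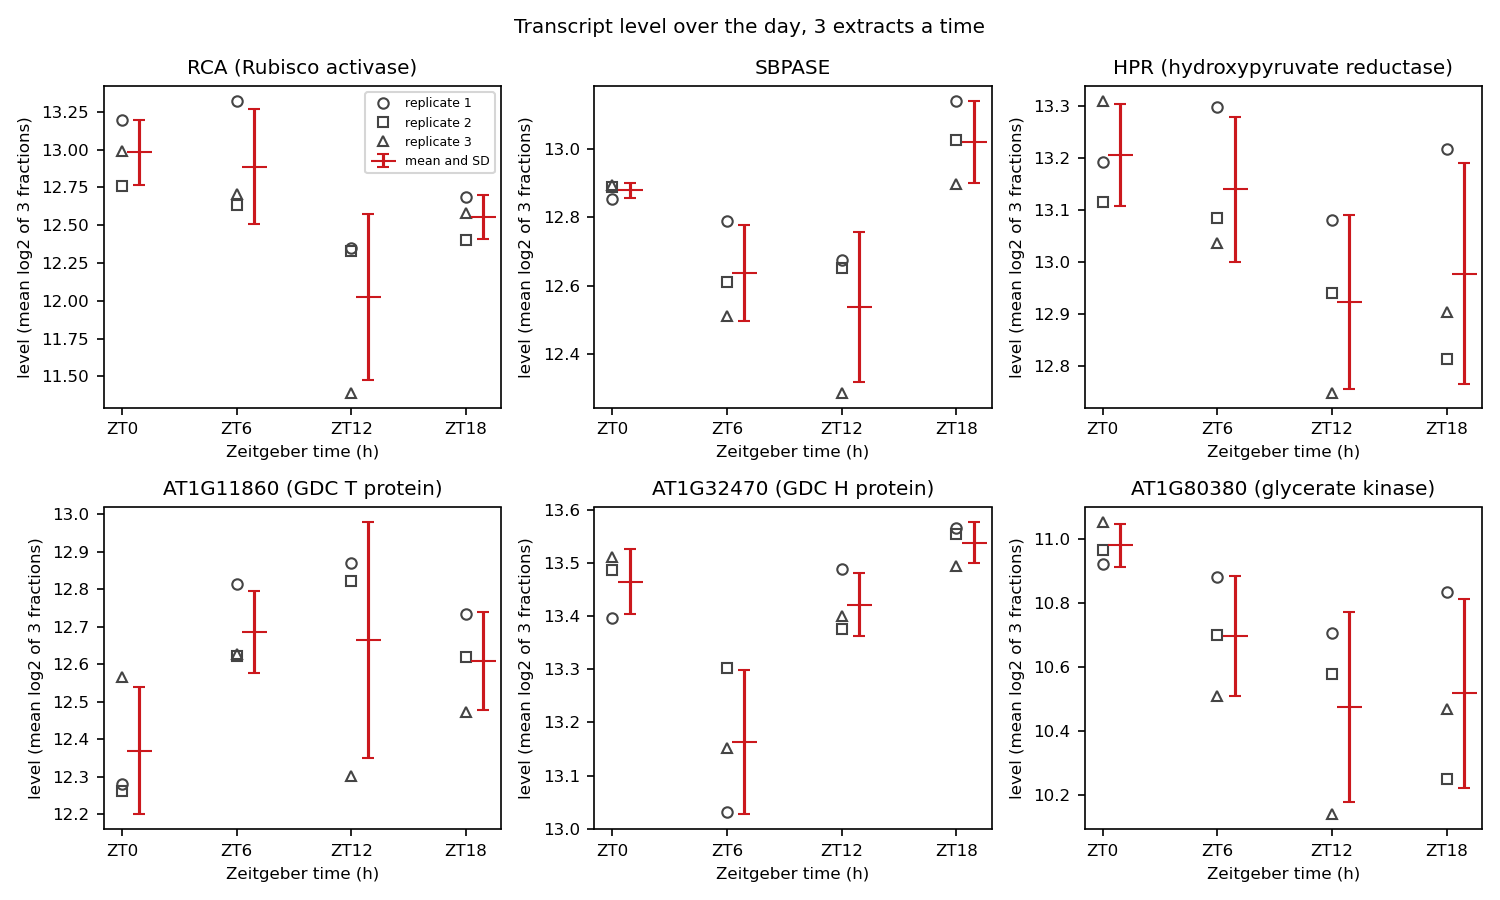
Level, the mean log2 value of the 3 fractions (vertical axis), of the 6 genes in the 3 extracts of ZT0, ZT6, ZT12 and ZT18, with the mean and SD in red. All 3 RCA levels at ZT12 lie below the 9 others, and all 3 SBPASE levels at ZT18 lie above the 9 others.

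RCA levels were 13.19, 12.76 and 12.99 at ZT0 and 13.32, 12.63 and 12.70 at ZT6. They were 12.35, 12.33 and 11.39 at ZT12 and 12.69, 12.40 and 12.58 at ZT18. All ZT12 levels were below the 9 others, a pattern held by 2.42% of all tested genes, and replicate 3 was by far the lowest. RCA was lower at ZT12 than at ZT0 by -0.96 ± 0.25 (SE, 3 extracts each, adjusted p = 0.00888 in limma) and lower at ZT12 than at ZT6 by -0.86 ± 0.25 (adjusted p = 0.0355). Without ZT12 replicate 3 the first was -0.64 and still passed (adjusted p = 0.0298), and the second was -0.55 and did not (adjusted p = 0.114). The second also ended without ZT6 replicate 1 (-0.65, adjusted p = 0.148), ZT6 replicate 3 (adjusted p = 0.0584) or ZT18 replicate 3 (adjusted p = 0.05), without replicate number 1 or 3 (adjusted p = 0.126 and 0.214), and with dim genes kept (adjusted p = 0.135). The first ended without replicate number 3 at every time (-0.64, adjusted p = 0.109). The neighbours ZT18 and ZT12 differed by 0.53 ± 0.25 and ZT6 and ZT0 by -0.09 ± 0.25, neither of which passed (adjusted p = 0.142 and 0.794).

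The glycerate kinase gene also had low levels in that extract. AT1G80380 levels were 10.92, 10.97 and 11.05 at ZT0 and 10.88, 10.70 and 10.51 at ZT6. They were 10.71, 10.58 and 10.14 at ZT12 and 10.84, 10.25 and 10.47 at ZT18. All ZT0 levels lay above the 9 others, as for 11.9% of all tested genes, although the nearest ZT6 level was close. ZT12 was lower than ZT0 by -0.51 ± 0.18 (adjusted p = 0.0424 in limma). This call ended without ZT12 replicate 3 (-0.34, adjusted p = 0.167) and likewise without any ZT0 extract, ZT6 replicate 2 or ZT18 replicate 3 (-0.53 to -0.47, adjusted p 0.0541 to 0.113), in 8 of the 15 fits in all, and with dim genes kept (adjusted p = 0.0979). ZT18 was below ZT0 by -0.46 ± 0.18 (adjusted p = 0.0657). For ZT12 minus ZT0 2 of 6 genes passed, RCA and glycerate kinase, where 36.8% of all tested genes did, and for ZT12 minus ZT6 1 of 6, where 14.5% did. In ZT12 replicate 3 the poly-A control level was 6.05, against 5.09 and 4.85 in the other ZT12 extracts, and the plastid-encoded level was 9.98, against 8.18 and 9.39. The aerial list there was at 13.20, against 13.30 and 13.25. The part of these in the low RCA and glycerate kinase levels was not tested.

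SBPASE levels were 12.85, 12.89 and 12.89 at ZT0 and 12.79, 12.61 and 12.51 at ZT6. They were 12.68, 12.65 and 12.29 at ZT12 and 13.14, 13.02 and 12.90 at ZT18. The ZT18 levels were all above the 9 others, as for 5.46% of all tested genes, with a narrow gap to ZT0. SBPASE was higher at ZT18 than at ZT12 by 0.48 ± 0.14 (adjusted p = 0.0222 in limma) and higher at ZT18 than at ZT6 by 0.38 ± 0.14 (adjusted p = 0.0439). ZT18 and ZT0, the neighbours at the top, differed by 0.14 ± 0.14 (adjusted p = 0.468). The ZT18 minus ZT12 call ended without ZT12 replicate 3 (0.36, adjusted p = 0.0772), ZT18 replicate 1 (0.42, adjusted p = 0.0668) or ZT18 replicate 2 (0.48, adjusted p = 0.0592). The ZT18 minus ZT6 call ended without any ZT0 extract, ZT6 replicate 2 or 3, or ZT18 replicate 1 or 2 (0.32 to 0.38, adjusted p 0.0566 to 0.145), and under median centring (adjusted p = 0.0623). Both also ended in each of the 3 fits without a replicate number. The F test call ended in 9 of the 15 fits, in those without a replicate number (adjusted p = 0.103, 0.145 and 0.163) and in 6 without an extract (adjusted p 0.0514 to 0.0717). The 6 were the fits without ZT0 replicate 2, ZT6 replicate 2 or 3, ZT12 replicate 3, or ZT18 replicate 1 or 2.

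The H protein gene had its lowest mean at ZT6. AT1G32470 levels were 13.40, 13.49 and 13.51 at ZT0 and 13.03, 13.30 and 13.15 at ZT6. They were 13.49, 13.38 and 13.40 at ZT12 and 13.57, 13.55 and 13.49 at ZT18. All ZT6 levels were below the 9 others, as for 6.46% of all tested genes. It was higher at ZT18 than at ZT6 by 0.38 ± 0.12 (adjusted p = 0.0217 in limma), a call that ended without ZT6 replicate 1 (0.31, adjusted p = 0.0852), ZT6 replicate 3 (adjusted p = 0.0594) or ZT18 replicate 2 (adjusted p = 0.0571), and without any one replicate number (adjusted p 0.0713 to 0.184). The comparisons of ZT6 with the times next to it did not pass, at -0.30 ± 0.12 for ZT6 minus ZT0 (adjusted p = 0.0536) and 0.26 ± 0.12 for ZT12 minus ZT6 (adjusted p = 0.167). ZT6 minus ZT0 passed under median centring (adjusted p = 0.0466), cyclic loess (0.027), dim genes kept (0.0109), a filter at 6 (0.0486), a trended robust variance (0.0162) and without ZT6 replicate 2 (0.0415). The neighbours ZT0 and ZT12 differed by less than the spread between extracts, at -0.04 ± 0.12 for ZT12 minus ZT0 (adjusted p = 0.813).

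For ZT18 minus ZT6 2 of 6 genes passed, SBPASE and the H protein, both higher, where 37.9% of all tested genes passed, and for ZT18 minus ZT12 1 of 6, where 25.3% did. For ZT6 minus ZT0 and ZT18 minus ZT0 0 of 6 passed, where 40.4% and 33.3% did, and 1 of 6 for ZT18 minus ZT0 with replicate number as a block (glycerate kinase, adjusted p = 0.043), where 35.8% did. At ZT18 the plastid-encoded level was 7.76, 11.08 and 10.15 in replicates 1, 2 and 3, against 8.04 to 9.98 at the other times. With replicate 1 as the only ZT18 extract the glycerate kinase difference for ZT18 minus ZT0 shrank to -0.14, against -0.46 with all 3. In the same setting the SBPASE difference was 0.60 for ZT18 minus ZT12 and 0.50 for ZT18 minus ZT6. That of the H protein was 0.40 for ZT18 minus ZT6. These SBPASE and H protein differences were each at least as large as with all 3 extracts. None of the 3 then passed (adjusted p = 0.0793, 0.101 and 0.126 in limma).

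HPR and the T protein gave no call in any pair of times. HPR means were 13.21 ± 0.10 at ZT0, 13.14 ± 0.14 at ZT6, 12.92 ± 0.17 at ZT12 and 12.98 ± 0.21 at ZT18 (SD, n = 3 each). Its ZT12 minus ZT0 difference was -0.28, with a 95% confidence interval of -0.60 to 0.03 (adjusted p = 0.148 in limma). T protein means were 12.37 ± 0.17 at ZT0, 12.69 ± 0.11 at ZT6, 12.66 ± 0.31 at ZT12 and 12.61 ± 0.13 at ZT18 (SD, n = 3 each), and its lowest ZT12 level, 12.30, was again replicate 3.

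Of the 6 other pathway genes 5 passed the F test, where 58.1% of all tested genes did, PRK being the exception (adjusted p = 0.505 in limma). AT5G64380 averaged 6.61 ± 0.09 at ZT0, 7.43 ± 0.16 at ZT6, 6.97 ± 0.30 at ZT12 and 6.39 ± 0.10 at ZT18 (SD, n = 3 each). It was lower at ZT18 than at ZT6 by -1.04 (adjusted p = 0.000183). HPR2 averaged 7.80 ± 0.21 at ZT0, 8.70 ± 0.06 at ZT6, 8.68 ± 0.05 at ZT12 and 8.27 ± 0.11 at ZT18 (SD, n = 3 each), and was higher at ZT12 than at ZT0 by 0.88 (adjusted p = 0.000168). AT1G56190 averaged 10.11 ± 0.24 at ZT0, 10.15 ± 0.13 at ZT6, 10.61 ± 0.32 at ZT12 and 10.82 ± 0.22 at ZT18 (SD, n = 3 each). The H protein gene AT2G35120 (adjusted p = 0.0479) and PLGG1 (adjusted p = 0.0312) passed with less room. Their calls ended under median centring (adjusted p = 0.0693 and 0.0506) and in 13 and 8 of 15 fits that left out samples. That of AT2G35120 also ended with cyclic loess, dim genes kept and a trended robust variance (adjusted p = 0.0775, 0.0518 and 0.061), and that of AT1G56190 without replicate number 1 or 2 (adjusted p = 0.101 and 0.0866).

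Over the 12 group means some pairs of the 6 genes were alike and others were not, as a description over points that share extracts. Pearson's r was 0.80 between RCA and glycerate kinase, 0.74 between HPR and glycerate kinase and 0.72 between RCA and HPR. It was 0.57 between SBPASE and the H protein and -0.46 between the T and H proteins. HPR was at 0.61 with the T protein, 0.38 with SBPASE and -0.31 with the H protein. RCA was at 0.47 with SBPASE, 0.12 with the T protein and -0.18 with the H protein. Glycerate kinase was at 0.47 with SBPASE, 0.16 with the T protein and 0.02 with the H protein, and SBPASE at 0.13 with the T protein. In likeness to RCA, glycerate kinase ranked 53, HPR 122, SBPASE 566, the T protein 2452 and the H protein 4642 of 6845 genes. The gene most like the T protein was AT3G07170, with r of 0.98, before AT4G29030 and AT5G02710, both at 0.97. AT4G29480, SDH2-2 and AT1G59960 were most like the H protein, each at 0.95. RCA was closest to AT1G66100 and AOR, each at 0.92, and AT1G19450 at 0.91. SBPASE was closest to AT4G28400 at 0.92, then AT5G63680 and AT1G78110, each at 0.89. HPR was closest to AT1G09740 at 0.92, then AT4G31140 at 0.91 and LPR2 at 0.90, and glycerate kinase to AT3G29240 at 0.94, then AT4G14300 and AT3G05070, each at 0.92.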

How the data were processed

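The arrays were Affymetrix, hybridised with biotin-labelled RNA made after oligo(dT) priming, per the labels' protocols. The authors deposited 1 log2 value per probe set and array; GCRMA, affy 1.42.3 and R 3.1 are named in the submitters' processing notes. The 36 columns were matched to samples by their names. Of 22810 probe sets 64 were controls, 13513 matched 1 gene, 503 several, and 8730 were not listed in the probe table used here. Symbols came from a gene table of assembly TAIR10.1, which matched 6823 of the 6846 tested genes. There is no read depth, and precision is limited by the number of arrays.

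Differences between fractions came from limma 3.58.1 (R 4.3.3) on the 36 arrays in 12 groups. Levels came from a second fit on the 12 extracts. Both were run on simulated arrays with known changes. The simulated noise was independent between arrays, so these runs did not cover shared deviations within an extract or a replicate number. Deviations of fractions of one extract correlated at 0.13 to 0.68 in all 36 pairs, so the number pairs the fractions of a time, and the block was fitted beside the fit without it. Across times the numbers paired in part (r -0.11 to 0.62, 13 of 18 pairs over 0.1), and the level fit was also run with replicate number as a block. The hybridisation control level was 10.80 to 11.03 in replicate 1 and 11.55 to 12.17 in replicates 2 and 3. The plastid-encoded level was lowest in replicate 1 at each time, the poly-A control level at ZT0 and ZT18 only. No 2 arrays were identical.

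The members and gene lists were chosen with earlier results of these data known. Named are the 6 genes, every other tested gene of both lists, and for each of the 6 the 3 genes most alike over the group means. Protein lengths and promoter motifs, planned as descriptions, were not analysed here. Alternatives were the block, median centring, cyclic loess, no filter, a filter at 6, a trended robust variance, the mean of a gene's probe sets, summed linear fractions, and each extract or replicate number left out.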

Additional observations from a re-analysis of the deposited data

How the results depend on the processing

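The 6 genes were measured by 1 probe set each on 36 arrays with 3 replicates a group, so small differences were not resolved, and over 1 day at 4 times. Median centring shifts all values of an array alike, and it moved the medians of the 6 genes and of all genes alike. Cyclic loess moved them differently. The median large minus non-polysomal difference of all genes was 0.03 as deposited, -0.05 after median centring and -0.09 after cyclic loess. That of the 6 genes was 0.23, 0.15 and 0.29. For small minus non-polysomal RNA the medians were 0.04, -0.09 and -0.03 for all genes and -0.10, -0.23 and 0.05 for the 6. The split of calls over all genes depended on the scaling too. Large minus non-polysomal calls were 2753 higher and 2570 lower as deposited, 2501 and 2791 with median centring, and 2420 and 2965 with cyclic loess. Small minus non-polysomal calls were 2295 and 1999 as deposited, 1734 and 2532 with median centring, and 2008 and 2289 with cyclic loess. Large minus small polysomal calls were 2056 and 2137, 2282 and 1957, and 1836 and 2398, in the same order. The cause of the changes below was not tested.

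Large minus non-polysomal calls of the T protein, the H protein and HPR kept their direction and side of the threshold under all alternatives run. With the extract block 5 of the 6 genes passed (RCA and glycerate kinase added), and with cyclic loess 5 (RCA and SBPASE added). At single times the count of the 6 was 1 at ZT6 with median centring, with no filter and with ZT18 replicate 1 alone, and 3 with cyclic loess, all higher, against 2 (1 higher and 1 lower). It was 2 at ZT12 with median centring, cyclic loess, no filter and a trended variance, and 2 at ZT18 with median centring, no filter and a trended variance. With ZT18 replicate 1 alone, a setting added after seeing the data, 0 of the 6 and 2060 of all genes passed at ZT18, the lone extract being assumed to vary like the others.

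For the change of this difference over the day, the extract block gave 770 of all genes in the F test, 53 for ZT12 minus ZT0 and 981 for ZT18 minus ZT6, against 195, 10 and 345 without it. For ZT12 minus ZT0 cyclic loess gave 17, no filter 40 and a trended variance 18. ZT18 replicate 1 alone gave 7 in the F test and 1 for ZT18 minus ZT6. Of the 6 genes 0 passed under any of these.

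For levels, 2 of the 6 passed the F test with no filter as well, but the H protein in place of RCA, and 3 with cyclic loess and with a trended variance, the H protein being added. The count for ZT6 minus ZT0 was 1 with median centring, cyclic loess, no filter, a filter at 6 and a trended variance. It was 0 for ZT12 minus ZT6 and 1 for ZT12 minus ZT0 with no filter, 1 for ZT18 minus ZT6 with median centring, and 1 for ZT18 minus ZT0 with the replicate block, median centring and a trended variance. With ZT18 replicate 1 alone it was 1 in the F test and 0 for ZT12 minus ZT6, ZT18 minus ZT12 and ZT18 minus ZT6, and of all genes 789 passed for ZT18 minus ZT12, 1463 for ZT18 minus ZT6 and 1049 for ZT18 minus ZT0. Beside these and large minus small polysomal RCA, neither the extract block of the fraction fit nor the replicate block of the level fit changed a call of the 6 genes.

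Leaving out an extract or a replicate number gave these lowest and highest counts of the 6: 1 to 3 for small minus non-polysomal, 2 to 5 for large minus small polysomal, 1 to 2 at ZT0 and at ZT6, 0 to 2 at ZT12, 0 to 2 for the level F test, 0 to 1 for ZT6 minus ZT0, ZT12 minus ZT6, ZT18 minus ZT12 and ZT18 minus ZT0, 1 to 2 for ZT12 minus ZT0 and 0 to 2 for ZT18 minus ZT6. Over all genes the loading F test gave 0 to 238, loading ZT12 minus ZT0 0 to 13 and loading ZT18 minus ZT6 0 to 418. Level counts were 408 to 1014 for ZT12 minus ZT6, 776 to 1704 for ZT18 minus ZT12, 1623 to 2581 for ZT12 minus ZT0, 1641 to 2798 for ZT18 minus ZT6 and 1410 to 2488 for ZT18 minus ZT0.

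The values given in the report that changed sign passed in neither fit. With median centring these were small minus non-polysomal HPR (-0.0894) and PRK (-0.1318), large minus small polysomal PRK (0.0299), and glycerate kinase at ZT0 (-0.0094) and ZT6 (-0.0245). With cyclic loess they were large minus non-polysomal PRK (0.0895) and small minus non-polysomal RCA (0.1365), and with ZT18 replicate 1 alone small minus non-polysomal PRK (-0.1277) and large minus small polysomal PRK (0.0653). With samples left out PRK ranged from -0.1008 to 0.1363 for large minus non-polysomal, from -0.0781 to 0.1438 for small minus non-polysomal and from -0.0626 to 0.0559 for large minus small polysomal. Small minus non-polysomal RCA ranged from -0.1808 to 0.0589 and HPR from -0.0296 to 0.0889. Large minus non-polysomal RCA at ZT6 ranged from -0.026 to 0.3136, glycerate kinase from -0.0395 to 0.2095 at ZT0 and from -0.133 to 0.1484 at ZT6, and SBPASE at ZT18 from -0.1591 to 0.0609. The RCA level for ZT6 minus ZT0 ranged from -0.3125 to 0.0323. Over all 48 differences between times of the 6 genes, for levels and for the fraction difference, cyclic loess changed the sign of 8, none of which passed in either fit and the largest of which was 0.16 in size. With it the median of the 6 genes was, for the fraction difference, -0.06 for ZT18 minus ZT6, against 0.18, and 0.06 for ZT12 minus ZT0, against -0.05, and for levels 0.09 for ZT18 minus ZT6, against -0.12, and 0.09 for ZT18 minus ZT0, against -0.08. With ZT18 replicate 1 alone 5 of the 48 changed sign.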
